A study of Drosophila melanogaster with 4 samples.

Results

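The achaete-scute complex is a cluster of 4 related genes near the tip of the Drosophila melanogaster X chromosome, achaete (ac), scute (sc), lethal of scute (l(1)sc) and asense (ase). Its H3K27me2 was read here from a fixed 100 kb window, X from 250001 to 350000 on FlyBase release 5. The window was defined by its chromosomal place, not by its signal, though with earlier results of these data known. It was set against the 200 kb on each side of it and against every equal window of X. It held 9 of the 12968 regions of ChIP replicate 1, 9 of the 11483 regions of ChIP replicate 2 and 21 of the 17184 regions of the authors' combined list. On X as a whole these lists held 2025, 1836 and 2823 regions.

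All samples were whole embryos of the wild-type strain Oregon-R (Oregon-R-modENCODE), labelled as 14 to 16 h old, with no transgene, mutation or treatment named. Chromatin crosslinked with 1.8% formaldehyde was precipitated with the antibody Ab24684 in 2 ChIP samples, and 2 input samples served as their controls. The deposited lists give the position and score of each significantly enriched region, without read counts, so the depth of the libraries is unknown and sequence outside every region is called uncalled, not unmarked. Whole embryos mix many tissues, so a mark in fewer cells and less mark per cell cannot be told apart.

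Histone H3 lysine 27 is methylated by Polycomb repressive complex 2, which places 1, 2 or 3 methyl groups. The trimethyl form marks genes silenced by Polycomb, and the dimethyl form is spread more broadly over chromatin outside active genes. A given lysine carries only one of these states at a time.

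The 4 members encode basic helix-loop-helix transcription factors that pair with Daughterless and bind E-box motifs. ac and sc give cells of the ectoderm the ability to become sensory organ precursors, and sc is also one of the X-linked elements by which the embryo counts its X chromosomes. l(1)sc is a main proneural gene of the embryonic central nervous system. ase is expressed in the neural precursors themselves, after the proneural step. The genes are small, and enhancers that serve more than one of them are spread over the long stretches between them.

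All 4 members were found in the RefSeq gene table, which is of release 6 and was used for names and order only. Ordered by their starts from the tip, the table lists yellow (y, needed for dark cuticle pigment), lncRNA:yar, ac, 3 long non-coding RNA genes, sc, l(1)sc, Pgcl, ase and then Cyp4g1, a cytochrome P450 of hydrocarbon-producing oenocytes. Regions on release 5 could not be assigned to single genes from it. In that table the stretch from ac to ase is nearly as long as the window, so a gene at either end, ase in particular, may lie at or beyond the edge. Values just outside the window are therefore given too, and every value below belongs to the window, not to a named promoter.

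The first question was how much of the complex was called. H3K27me2 regions took up 17.9% of the window in replicate 1 and 15.4% in replicate 2, a mean of 16.6% ± 1.76 (SD, n = 2). X as a whole was covered at 23.4% and 19.2%, or 21.3% ± 3.00. The window was thus lower than X in each replicate. No difference in covered share was tested, because an exact permutation test (two-sided, by sign flips) over 2 ChIP samples can reach no p below 0.5. Values are set against the replicate spread instead.

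The regions were evenly matched in number, and by median width they were narrow for X in replicate 2 only. Widths ran from 1375 to 2783 bp in replicate 1 and from 1316 to 3213 bp in replicate 2, where the narrowest region anywhere in either list measured 1301 bp. In replicate 1 the median region measured 2118 bp, the same as over that whole list. Other windows of X had a lower median width in 116 cases and a higher one in 105. In replicate 2 it measured 1529 bp, where the list as a whole had 2005 bp. There 10 of the 220 other windows with a region had a lower median width and 209 a higher one. The widest region of replicate 1, at 2783 bp, was narrower than the widest region of 192 of the 221 other windows of X that held one. For the widest of replicate 2, at 3213 bp, this was so in 150 of 220 windows.

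**Figure D1:**
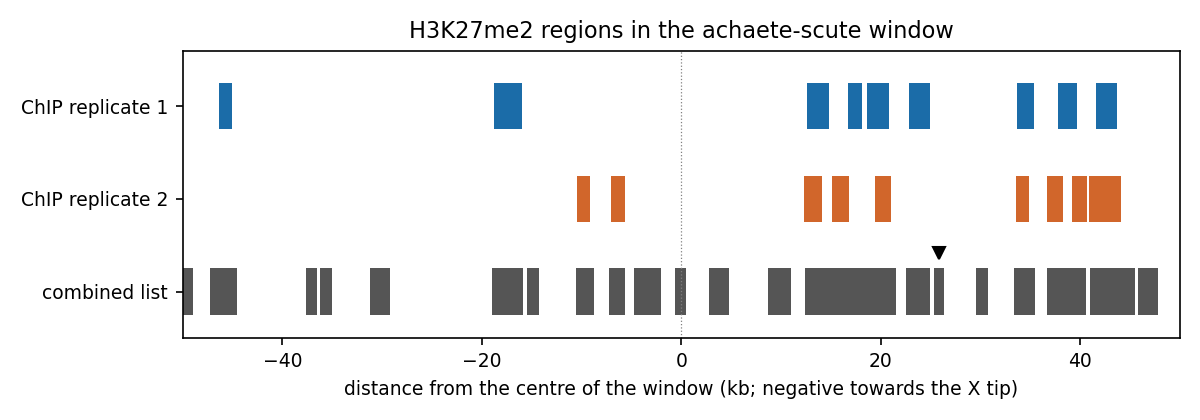
Positions of the H3K27me2 regions (bars, to scale) of both ChIP replicates and of the combined list along the 100 kb window; the horizontal axis is the distance from its centre in kb, and the triangle marks the narrow combined region with a score of 2.63. The replicates share sequence only to the right of the centre, and the combined list has regions along the whole window.

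Read from the tip, replicate 1 had a first region from 253611 to 254985 and then none until its widest, from 281202 to 283984. Replicate 2 had nothing in that stretch and began with a pair of regions from 289542 to 290857 and from 292907 to 294398. None of these 4 regions had a base in common with the other replicate. Both lists were then empty up to about the same point and resumed together, at 312629 in replicate 1 and at 312342 in replicate 2.

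From there to the end of the window each replicate had 7 regions. In replicate 1 these included the region from 312629 to 314782 (2154 bp) and the region from 341557 to 343754 (2198 bp), the next widest after the one from 281202. In replicate 2 they included the widest, from 340871 to 344083, and those from 312342 to 314073 (1732 bp) and from 315119 to 316847 (1729 bp). The replicate 1 region from 341557 to 343754 lay wholly inside the widest region of replicate 2. The last region ended at 343754 in replicate 1 and at 344083 in replicate 2, and the remaining kilobases of the window were empty in both.

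The side of the window near the tip was therefore little covered and the side towards the centromere more so. The distal 50 kb was covered at 8.32% in replicate 1 and 5.62% in replicate 2. The proximal 50 kb was covered at 27.4% and 25.1%. The difference was 19.1 percentage points in replicate 1 and 19.5 in replicate 2, larger than the gap between the replicates on either side. Such unevenness was not rare on X: 64 of the 222 other windows had a larger difference between their sides in replicate 1, and 50 did in replicate 2. This split was chosen after seeing the data.

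In bins of 10 kb, 5 of the 10 bins of the window had sequence in regions of both replicates and 3 had none in either. The 3 empty bins began at 260001, 270001 and 300001. The highest was the bin from 310001 to 320000, covered at 49.3% and 39.8% (mean 44.6% ± 6.72, SD, n = 2). The closest match between replicates came in the bin from 330001 to 340000, at 36.4% and 36.2%. The bin from 290001 to 300000 was covered at 23.5% in replicate 2 and had no region in replicate 1, and the bin from 250001 to 260000 was covered at 13.8% in replicate 1 alone. The share of empty bins over X is not given here, so empty bins are not read as particular to the window or to a flank.

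**Figure D2:**
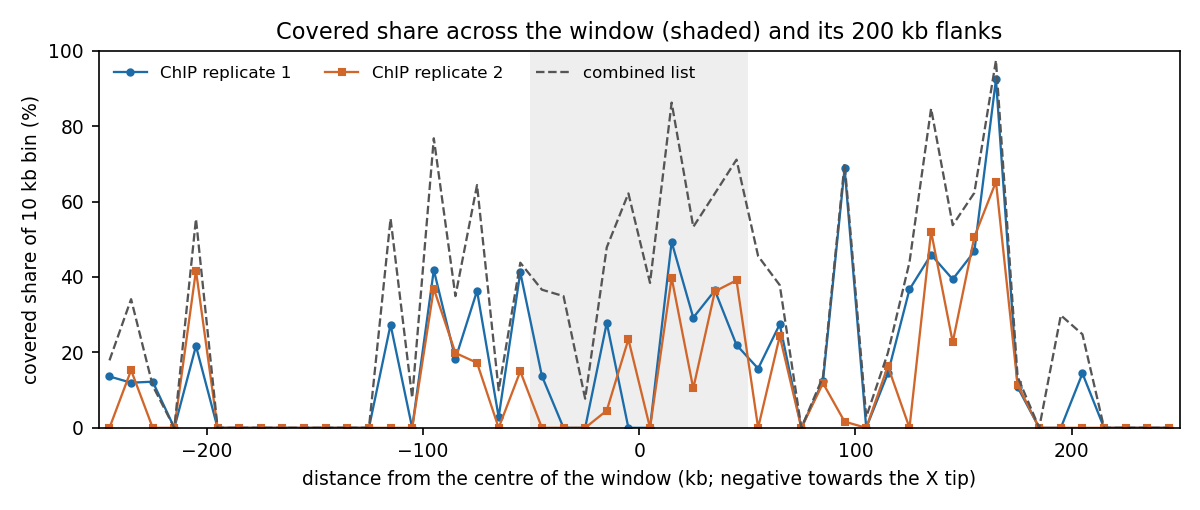
Covered share of 10 kb bins (percent) against distance from the centre of the window in kb, with the window shaded, for both ChIP replicates and the combined list. In the replicates the side of the window away from the tip is higher, the bin at 15 kb reaching 49.3% and 39.8%, and long uncalled stretches lie in both flanks.

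Uncalled stretches within the window were of ordinary length for X. The longest in replicate 1 ran over 28644 bp from 283985 to 312628, followed by 26216 bp from 254986 to 281201 and 8795 bp from 324921 to 333715. In replicate 2 the longest ran over 39541 bp from the window's edge at 250001 to 289541, followed by 17943 bp from 294399 to 312341 and 12479 bp from 321048 to 333526. Across the other windows of X the longest uncalled stretch had a median of 28325.5 bp in replicate 1. In replicate 2 this median was 32405 bp. A longer one was found in 111 of the 222 windows in replicate 1 and in 85 in replicate 2. The longest stretch uncalled in both replicates was the one from 254986 to 281201.

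The second question was whether the complex stood out from its surroundings. Against both flanks of 200 kb it did so by little more than the replicate spread. The flanks were covered at 16.3% in replicate 1 and 10.1% in replicate 2, so the window was higher by 1.53 and 5.31 percentage points, a mean of 3.42 ± 2.67 (SD, n = 2). When each list was limited to its upper 50% by score, the sign reversed, to -2.07 and -0.71 points.

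The flanks differed from each other. The distal flank, from 50001 to 250000, was covered at 11.4% and 7.30%, below the window in each replicate by 6.48 and 8.07 points. That was a mean of 7.27 ± 1.12 (SD, n = 2). It held the longest uncalled stretch of the neighbourhood, 84252 bp without a region in either replicate from 95899 to 180150. In replicate 2 alone that stretch extended to 105525 bp. Of the 20 bins of the distal flank, 10 were empty in both replicates, and 8 of the 20 bins of the proximal flank were, so the flanks were near each other in this count.

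The proximal flank, from 350001 to 550000, was covered at 21.3% and 12.8%. The window minus this flank was -3.41 points in replicate 1 and 2.55 points in replicate 2, so the replicates gave opposite signs. Between 430001 and 470000 every bin was covered to at least 22.7% in each replicate, and the bin from 460001 to 470000 reached 92.4% in replicate 1 and 65.3% in replicate 2, above any bin of the window. There the highest score of the flank in replicate 1 lay from 458687 to 462543, at 1.06, percentile 99.4 of the list. The highest score of the flank in replicate 2, 0.856 at percentile 94.6, lay from 443983 to 446252. The widest regions of this flank lay from 431418 to 436009 (4592 bp) in replicate 1 and from 453731 to 457902 (4172 bp) in replicate 2.

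On the distal flank the widest region of replicate 1 lay nearest to the window, from 239716 to 244122 (4407 bp), and the highest-scoring of replicate 2, from 242404 to 243902, lay wholly within it. The highest-scoring region of replicate 1 there, from 68804 to 71224, had no base in replicate 2. The widest of replicate 2, from 93188 to 95898 (2711 bp), was covered to 80.0% in replicate 1.

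Just outside the window the replicates had 1 region in common on each side. On the distal side this was the pair just named. On the proximal side, where ase would lie if it falls outside the window, replicate 1 had a region from 361265 to 364011 (score percentile 77.4) and replicate 2 a region from 361333 to 363764 (percentile 85.1). A region from 354204 to 355775 was present in replicate 1 and not in replicate 2. With the window moved by 20 kb towards the centromere, a choice made after seeing the data, its covered share was 20.8% and 17.8%. These regions were also examined after their values were seen.

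The third question was the place of the complex among equal windows of X. On a grid of adjacent 100 kb windows the window as fixed ranked somewhat below the middle. In replicate 1, 82 of the 222 other windows had a lower covered share and 140 a higher one. In replicate 2, 97 were lower and 125 higher. The other windows ran from 0% to 60.8% in replicate 1 with a median of 23.0%, and from 0% to 52.1% with a median of 18.0% in replicate 2. The middle 50% of windows ranged from 13.8% to 30.3% in replicate 1. The same range was 11.0% to 26.0% in replicate 2, and the complex lay inside both. With the window moved 20 kb towards the centromere, a choice made after seeing the data, it lay near the middle. Then 46.4% of the other windows were lower in replicate 1 and 50.5% in replicate 2. These ranks describe positions along 1 chromosome, which are not replicates.

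**Figure D3:**
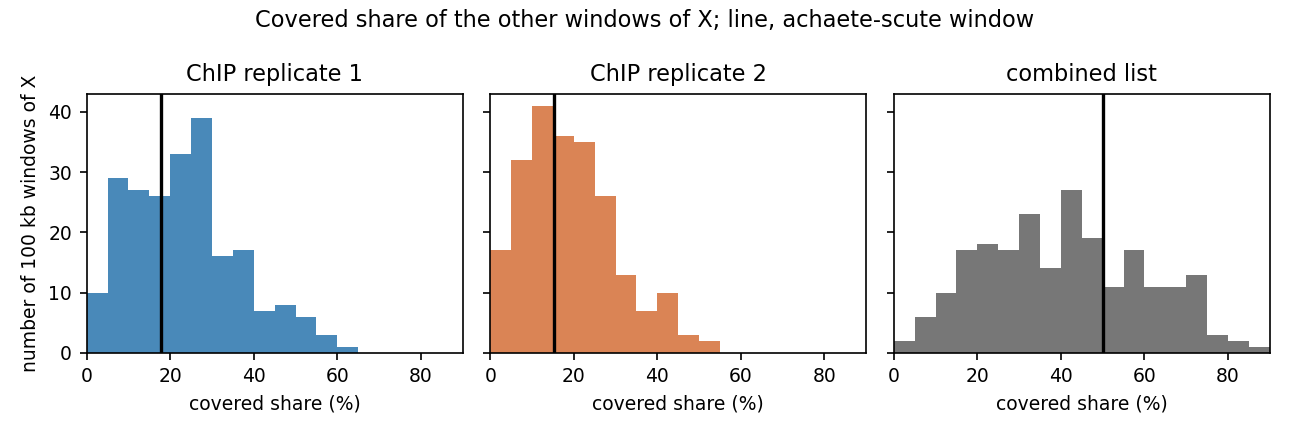
Number of the 222 other 100 kb windows of X by covered share (percent, in steps of 5), in each ChIP replicate and in the combined list, with the achaete-scute window as a vertical line. The window lies below the median of 23.0% in replicate 1 and of 18.0% in replicate 2, and above the median of 40.8% in the combined list.

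The windows most like it, by the summed difference in covered share over both replicates, began at 8750001 (18.1% and 14.9%), at 12450001 (18.4% and 15.1%) and at 4750001 (17.2% and 15.8%). Their regions numbered 8 and 7, 5 and 6, and 7 and 8 in replicates 1 and 2, against 9 and 9 in the complex. In the combined list these windows had 13, 9 and 11 regions, against 21 in the complex, and were covered at 39.4%, 25.4% and 34.1%, against 50.1%.

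The regions also differ in score. The score is the authors' own value for each region, on a scale the headers do not name, and it was compared only within a list. Scores in the window ran from 0.514 to 0.691 in replicate 1 and from 0.494 to 0.726 in replicate 2. The highest of replicate 1 was 0.691, for the region from 322803 to 324920, at percentile 81.2 of its list. Next came 0.649 for the region from 341557 and 0.642 for the region nearest the tip, from 253611. In replicate 2 the highest was 0.726, at percentile 78.5, for the region from 340871, followed by 0.723 for the region from 339230 to 340699 and 0.711 for the region from 315119. No region of the window was in the top 10% of either replicate list.

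Scores on X were generally high, and the complex was low for X. The median score of the window lay at percentile 51.0 of all regions in replicate 1 and 34.3 in replicate 2, where the median X region lay at 68.0 and 73.9. The flanks were low for X as well, apart from the proximal flank in replicate 2. The distal flank had medians at 54.9 and 52.7, and the proximal flank at 57.2 and 76.5. In the combined list the window was close to its flanks, with a median at percentile 53.0. There the distal flank lay at 54.4, the proximal flank at 54.5 and the median X region at 61.8. Of the 221 other windows of X with a region, 191 had a higher median percentile in replicate 1 and 30 a lower one. In replicate 2, 216 of 220 had a higher one and 4 a lower one. Of the window's regions, 5 of the 9 regions of replicate 1 (55.6%, 95% Clopper-Pearson interval 21.2% to 86.3%) and 3 of the 9 of replicate 2 (33.3%, 7.49% to 70.1%) reached the median score of the list they came from. Over all regions of X these shares were 70.5% and 75.0%. The intervals cover counting alone, and treat neighbouring regions as independent, so they test no difference from X.

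**Figure D4:**
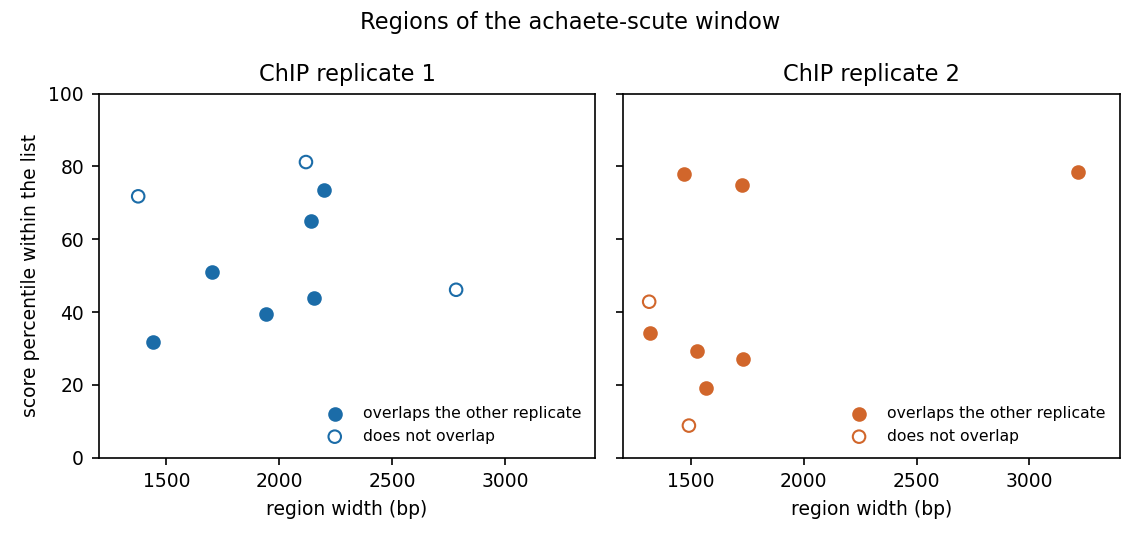
Score percentile within its list against width in bp for the 9 regions of each ChIP replicate in the window; filled points share at least 1 bp with a region of the other replicate. The highest percentile is 81.2 in replicate 1, for a region without overlap, and 78.5 in replicate 2, for the widest region.

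The fourth question was how far the replicates called the same sequence in the complex. In regions of both replicates lay 7216 bp. This made up 40.4% of what replicate 1 called in the window and 47.0% of what replicate 2 called. The Jaccard index (shared length over the length called by at least 1 replicate) was 0.278, against 0.473 over X, 0.380 in the distal flank and 0.497 in the proximal flank. It was higher in 188 of the 222 other windows and lower in 34. Of the windows most like the complex in covered share, the one from 8750001 had an index of 0.345, the one from 12450001 had 0.674 and the one from 4750001 had 0.244, below the complex. All of the shared sequence lay in the proximal 50 kb, where the index was 0.379, and the index of the distal 50 kb was 0.

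Counted as regions, 6 of 9 in replicate 1 overlapped replicate 2 by at least 1 bp (66.7%, 29.9% to 92.5%), where the share over X was 68.8%. In replicate 2, 7 of 9 overlapped replicate 1 (77.8%, 40.0% to 97.2%), where it was 80.3%. These shares were near those of X. The overlaps formed 7 pairs that shared from 165 to 2198 bp, and 4 of the pairs shared at least 50% of both regions. The smallest, of 165 bp, joined the region from 316683 to 318121 in replicate 1 and the one from 315119 to 316847 in replicate 2. The highest-scoring region of replicate 1 in the window, from 322803 to 324920, had no partner in replicate 2.

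In the list the authors made for the whole replicate set, the complex ranked above the median window of X in covered share, still within the middle 50% of windows (25.4% to 56.5%). The combined list covered 50.1% of the window, against 20.6% of the distal and 30.0% of the proximal flank and 40.7% of X. It had 153 of the 222 other windows below it, whereas 82 were below it in replicate 1 and 97 in replicate 2. Its 21 regions compared with a median of 12 per window, and 202 windows had fewer. No bin of 10 kb was without a combined region, and the longest stretch uncalled in all 3 lists was 10279 bp, from 270775 to 281053. The sources used here do not say how the authors pooled the replicates, so these are the authors' values without replicate error.

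Much of this sequence was in neither replicate list. Of the 50060 bp in combined regions, 24368 bp (48.7%) lay in no region of replicate 1 or replicate 2, where the share over X was 30.0%. The share was lower in 201 of the 222 other windows and higher in 21. The combined list exceeded the sequence covered in either replicate by 24.1 percentage points of the window, where the median window of X had 10.4 points and 10 windows had more. By regions, 12 of 21 overlapped neither replicate (57.1%, 34.0% to 78.2%), against 32.3% over X. Only 4 of 21 overlapped both (19.0%, 5.45% to 41.9%), against 39.8% over X. These intervals again treat neighbouring regions of 1 list as independent, so they test no difference from X. The ranks given above were computed after the data were seen.

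**Figure D5:**
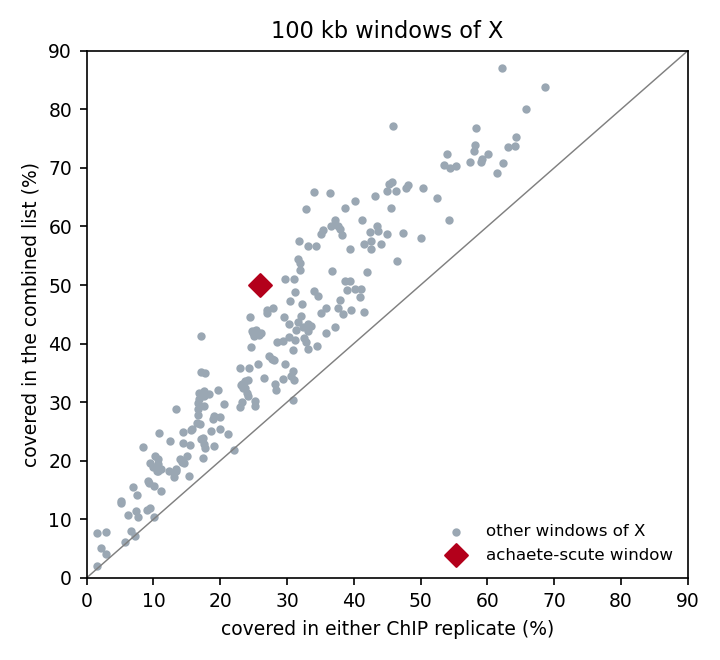
Covered share in the combined list against the share covered in either ChIP replicate (both in percent) for each 100 kb window of X, with the line of equality; the diamond is the achaete-scute window. It lies at 26.0% on the horizontal and 50.1% on the vertical axis, near the upper edge of the cloud, with 10 windows further above the line.

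The 4 combined regions that overlapped both replicates lay in the proximal part and included the 3 widest of the window. The widest measured 9105 bp from 312406 to 321510, followed by 4555 bp from 340982 to 345536 and 3969 bp from 336646 to 340614. The first of these was covered to 63.0% in replicate 1 and 54.5% in replicate 2. The 12 that overlapped neither had a median width of 1229 bp, and 7 of them were narrower than 1301 bp, the narrowest region in either replicate list. In the whole combined list 12.3% of regions were narrower than 1237 bp and 26.1% narrower than 1623 bp. No such share is given here for the combined regions of X that overlapped neither replicate, so narrowness is not read as particular to the window. Whether the lists were made with a minimum width is not stated. The replicate regions were themselves nearly all contained in the combined list, to 99.98% of their length in replicate 1 and 98.0% in replicate 2.

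From 312406 to 347786 the combined list had 8 regions that covered 74.2% of 35381 bp. Replicate 1 covered 38.7% of this stretch and replicate 2 covered 35.3%, and it held 76.7% and 81.3% of all their called sequence in the window. In the other 64619 bp of the window the replicates covered 6.43% and 4.44%, and the combined list covered 36.8%. The bounds of this stretch were chosen from the combined list after seeing the data.

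The highest score of the window in the combined list belonged to a narrow region. It measured 1001 bp, from 325386 to 326386, and had a score of 2.63, the highest of the 2823 combined regions of X. It shared no base with either replicate. The next highest was 0.556, for the region from 322538 to 324916, and then 0.533, for the region from 340982. Narrow regions were common at the top of the combined list. Of its 168 regions at or above percentile 99, 105 were at most 1100 bp wide, and 7 of the 9 of them that lay on X were. In the whole combined list 7.64% of regions were narrower than 1119 bp, and among its regions on X 7.62% were. Leaving this region out, a choice made after seeing the data, moved the share of combined sequence in neither replicate only from 48.7% to 47.6%.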

How the data were processed

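Per the labels, ChIP and input DNA from whole Oregon-R embryos was sequenced, and the submitters' processing notes name Bowtie 0.12.7. The 3 deposited lists (1 per ChIP sample and 1 over the replicate set) give regions of significant enrichment on FlyBase release 5, per the file headers, and the authors' score for each region. For the region caller, its threshold and the pooling, nothing is stated in the sources used here. Each replicate file opens with a cut-off copy of its header before the full one; every region line was read. The lists hold no read counts, so no depth or limit of detection can be given. Whether the ChIP samples are separate embryo collections is not in the labels, so their spread may be technical.

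Covered share was the union of the regions divided by window length. A score percentile is the percent of regions in the same list with a lower score. X was cut into 223 adjacent windows of 100 kb, 1 of them the achaete-scute window. The regions named are the 3 widest and 3 highest-scoring of each list in the window, the 3 longest uncalled stretches of each replicate, and the widest and highest-scoring region of each flank; other regions were named after their values were seen. The window, members and comparisons were chosen with earlier results of these data known. Alternatives were other score thresholds, merging, window bounds, flanks, grids and overlap rules, and leaving out each replicate. Computations used numpy 2.4.6, scipy 1.17.1 and pandas 2.3.3 under Python 3.11.15, with figures from matplotlib 3.10.9. Interval functions were tested on simulated data. No sequence is printed, since the genome of release 5 was not used here.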

Additional observations from a re-analysis of the deposited data

How the results depend on the processing

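The covered share of the window (16.6%) was 7.97% with each list limited to regions that reach its median score, 19.3% with the window moved 20 kb towards the centromere (a choice made after seeing the data) and 50.1% in the combined list. Its excess over the flanks (3.42 points) reversed to -1.39 with the median-score threshold and to -0.43 against the proximal flank alone. It was 0.44 with flanks of 100 kb, where replicate 1 gave -3.59 and replicate 2 gave 4.47, 7.27 against the distal flank alone, 0.87 and 0.85 with the window narrowed and widened by 20 kb on each side, and 24.8 in the combined list. The threshold removes low-scoring regions from the window and the flanks alike, and the causes of these changes were not tested. The percent of windows of X below the complex (40.3) was 21.2 with the threshold, 48.4 with the moved window and 68.9 in the combined list.

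The Jaccard index (0.278) was 0.160 with the threshold, 0.307 with regions less than 1 kb apart merged, 0.189 and 0.321 with the window narrowed and widened by 20 kb on each side, and 0.333 with the moved window. The share of regions overlapping the other replicate (72.2%) was 44.4% at 50% reciprocal overlap and 26.7% with the threshold. Shares over X under these stricter rules are not given here, so the drop is not read as particular to the complex. The median score percentile (42.6) was 22.5 among regions of X alone and 53.0 in the combined list. The number of regions rose from 9 to 21 in the combined list, and the longest uncalled stretch (34092.5 bp) was 10279 bp both there and over all 3 lists.

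The share of combined sequence in neither replicate (48.7%) was 60.4% with the threshold and, among choices made after seeing the data, 47.6% without the region of score 2.63, 39.3% without regions narrower than any replicate region and 44.1% with the moved window. The proximal minus distal difference (19.3 points), also chosen after seeing the data, was 13.2 with the threshold, 21.0 with merging, 9.59 with the moved window and 24.4 in the combined list.

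Leaving out either replicate gave 15.4% to 17.9% for the covered share, 1.53 to 5.31 points against the flanks, 36.9% to 43.7% of windows below, 19.1 to 19.5 points between the sides, 34.3 to 51.0 for the score percentile, 1529 to 2118 bp for the median width, 28644 to 39541 bp for the uncalled stretch and 9 regions each way. Overlap measures need both replicates. With 2 replicates, leaving 1 out always moves a mean by less than their SD, so these ranges say nothing on stability. Of the 49 other alternative values, 19 moved by less than that spread, by less than 1.5 times for a count, or not at all. The Jaccard index and the share of combined sequence in neither replicate have no SD, so any change in them counted as moved. No paired analysis was possible because no list was made for the inputs among the files analysed, and an input does not share the number of the ChIP sample it served. Depth is unknown, which limits what can be said of uncalled sequence.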
